A study of Mus musculus with 6 samples.

Results

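Interferon-stimulated genes and the genes that carry the interferon signal were followed in the left ventricle of mouse hearts that received extra Rbm24, an RNA-binding protein and splicing factor of striated muscle. The list holds 49 genes, namely the receptor chains for type I and type II interferon, the transcription factors behind them and the antiviral effectors that they switch on. The members are a list of gene symbols, with no threshold on their values. They and the other gene lists below were chosen with earlier results of these data known, so shares of a list are descriptions. Of the members, 48 had a transcript cluster (the array's unit for 1 transcribed locus) annotated with their symbol alone, out of 30738 genes with such a cluster, and Ifi44 is not analysed here. Male wild-type C57/Bl6 mice were injected intraperitoneally at 1 week of age with 4000000000000 viral genomes (vg) of AAV9-Rbm24 (n = 3 mice) or AAV9-GFP (n = 3 mice) and were sacrificed 2 weeks later. AAV9 is a serotype of adeno-associated virus that infects heart muscle cells well. AAV9-Rbm24 carries the flag-tagged mouse Rbm24 reading frame behind a CMV promoter, which is not restricted to 1 cell type, and AAV9-GFP carries green fluorescent protein in its place. Both groups received virus at the same dose. No uninjected heart is among the arrays, so the values compare Rbm24 with GFP and not virus with no virus.

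Interferons are secreted proteins, and cells release those of type I when they sense viral nucleic acid. Type I interferon (interferon alpha and beta) binds the receptor chains Ifnar1 and Ifnar2, and the kinases Jak1 and Tyk2 then act on Stat2, which joins Irf9 in the complex ISGF3. Type II interferon (interferon gamma) binds Ifngr1 and Ifngr2, and signals through Jak1 and Jak2. ISGF3 binds the interferon-stimulated response element (ISRE) in the promoters of its target genes, and the response to interferon gamma runs through the gamma-activated site (GAS). In the heart, this pathway is known for limiting virus growth in viral myocarditis.

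Both DNA elements can be read in the promoters of the members, and the following stretches are shown because they belong to genes whose values are described later and carry these elements. In the RefSeq table of promoters (build GRCm38.p6, 250 bases before to 50 bases after each transcription start), 38 of the 49 listed genes had an entry. The ISRE core was searched as GAAANNGAAA and the GAS as TTCNNNGAA, where N is any base, on both strands. In the stretches, the capitals mark the match, and each stretch is written 5′ to 3′ along the strand of its gene.
Isg15, ISRE core, chr4:156200871-156200900, minus strand: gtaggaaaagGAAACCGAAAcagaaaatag
Ifit1, ISRE core on the other strand, chr19:34640794-34640823, plus strand: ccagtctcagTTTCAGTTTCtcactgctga
Ifit3, ISRE core on the other strand, chr19:34583397-34583426, plus strand: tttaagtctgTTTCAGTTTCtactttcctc
Oas1a, ISRE core, chr5:120907520-120907549, minus strand: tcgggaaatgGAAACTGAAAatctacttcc
Stat2, ISRE core on the other strand, chr10:128270266-128270295, plus strand: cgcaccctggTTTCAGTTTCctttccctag
Igtp, ISRE core, chr11:58199512-58199541, plus strand: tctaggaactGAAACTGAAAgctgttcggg
Ifitm2, ISRE core, chr7:140955988-140956017, minus strand: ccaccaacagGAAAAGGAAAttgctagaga
Ifitm3, ISRE core, chr7:141010706-141010735, minus strand: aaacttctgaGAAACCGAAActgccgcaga
Irf1, GAS, chr11:53769914-53769943, plus strand: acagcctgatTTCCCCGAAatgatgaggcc

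The ISRE core was found in 17 of the 38 members with a promoter (44.7%), against 3.99% of the 27025 genes of the table. The GAS was found in 14 of 38 (36.8%), against 9.55% of all genes. Matches can overlap each other, as in the Isg15 promoter, which held 3 overlapping ISRE cores, and an ISRE core can overlap a GAS, as in Ifitm3. These counts describe letters in a window and say nothing of whether a factor was bound there. The 17 measured members with an ISRE core had a median log2 difference of 0.20 between AAV9-Rbm24 and AAV9-GFP hearts, with groups that did not overlap for 3 of them. The 20 with a promoter but no core also had 0.20, with 8 of them not overlapping. For the GAS the medians were 0.24 over 14 members with a match (5 not overlapping) and 0.16 over 23 without (6 not overlapping). In all these counts every AAV9-Rbm24 heart was the higher one. That pattern was found in 7.01% of all clusters, and in 14.4% of genes with 1 symbol and a mean log2 signal of at least 6. These splits are descriptions with no test.

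The values are log2 signals, 1 per cluster and heart, so a difference of 1 is a 2-fold difference. Differences are AAV9-Rbm24 minus AAV9-GFP and were tested with limma over all 65956 clusters, with p-values adjusted by the Benjamini-Hochberg method, and an adjusted p under 0.05 counted as called. A second rule takes the thresholds of the study's methods, a difference of 1.5-fold or more together with an unadjusted p under 0.05, but with limma's p in place of that of an analysis of variance. Over all clusters, 159 were called higher in AAV9-Rbm24 hearts (0.241%) and 17 lower (0.0258%) by adjusted p. The fold and p rule passed 813 higher (1.23%) and 364 lower (0.552%). Among the 14841 genes with 1 symbol whose log2 signal averaged 6 or more, 0.755% were called higher by adjusted p and 3.06% by fold and p. The signals of Rbm24 itself were 14.58, 14.74 and 15.12 in AAV9-Rbm24 hearts, against 13.95, 13.63 and 13.57 in AAV9-GFP hearts, a 2.14-fold difference (adjusted p = 0.0607, limma). By qPCR the paper found a much larger rise of Rbm24 mRNA at this dose and time, and a Western blot showed the protein. The array value is thus not a measure of how much Rbm24 the hearts gained. On the first principal component over all clusters (37.4% of the variance), AAV9-GFP 2 stood apart at -64.34, while the other 5 hearts lay between -9.74 and 41.35, and AAV9-Rbm24 3 held the highest score. The signals of AAV9-GFP 2 also spanned a narrower range, with a 5th percentile of 4.10, a median of 5.67 and a 95th percentile of 11.53. In the other hearts these lay at 3.90 to 3.95, 5.49 to 5.55 and 11.67 to 11.72. Signals of different genes cannot be set against each other on this array, and RMA values hold no zero. The medians of the negative control rows lay between 6.498 and 6.67, and 8 members had a mean signal below the highest of these medians (Irf5, Isg15, Oas3, Oasl1, Mx1, Mx2, Ifitm1 and Zbp1). The 95th percentiles of those rows lay between 9.93 and 10.32, and 6 members had a mean signal above the highest of them (Ifnar2, Ifngr1, Ifngr2, Ifitm3, Gbp7 and Samhd1).

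Across the 48 members the interferon pathway showed small differences. No member was called by adjusted p in either direction, the lowest adjusted p being 0.0569 for Ifi204 (limma). Taking p without adjustment, 7 members lay under 0.05 as higher (14.6%) and 0 as lower, against 4.08% higher and 4.33% lower over all clusters and 8.89% higher among genes with 1 symbol and a mean of at least 6. By fold and p, Ifi204 and Ifitm2 passed as higher (4.17% of the members, near the 3.06% of genes with a mean of at least 6) and none as lower. The signal was higher in AAV9-Rbm24 hearts by the group means for 44 members and lower for 4 (Ifngr2, Irf3, Gbp3 and Cmpk2), with a median log2 difference of 0.19. The median over all clusters was -0.03, and over clusters with a mean of at least 6 it was 0.02. Differences above 0 made up 91.7% of the members, against 54.3% of clusters with a mean of at least 6. With array weights, which counted AAV9-GFP 2 least (0.332), 39 members lay above 0, against 50.7% of all clusters. Without AAV9-GFP 2, 41 members did, against 52.8% of all clusters. The groups did not overlap, with all AAV9-Rbm24 hearts higher, for 13 members (27.1%), against 7.01% of all clusters and 14.4% of genes with 1 symbol and a mean of at least 6. For no member were all AAV9-Rbm24 hearts lower, a pattern found in 7.71% of all clusters. That share includes dim clusters. Differences above 0 made up 42.9% of all clusters, so lower values were more common there than among clusters with a mean of at least 6.

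The intervals bound how large a difference in array signal could have been missed. They say less of RNA for the 8 members with a mean below the highest negative control median. With 3 hearts a group and 7.77 degrees of freedom, the 95% interval of the difference excluded a 2-fold increase for 47 of 48 members, all but Ifi204. It excluded a 1.5-fold increase for 30 members and a 1.5-fold decrease for all 48. Without Ifi204, Ifitm2 and Ifitm3, the remaining 45 members spanned log2 differences of -0.18 to 0.39. An exact two-sided permutation test over 3 against 3 hearts cannot go below 0.1, and it reached that value for the 13 members whose groups did not overlap.

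**Figure D1:**
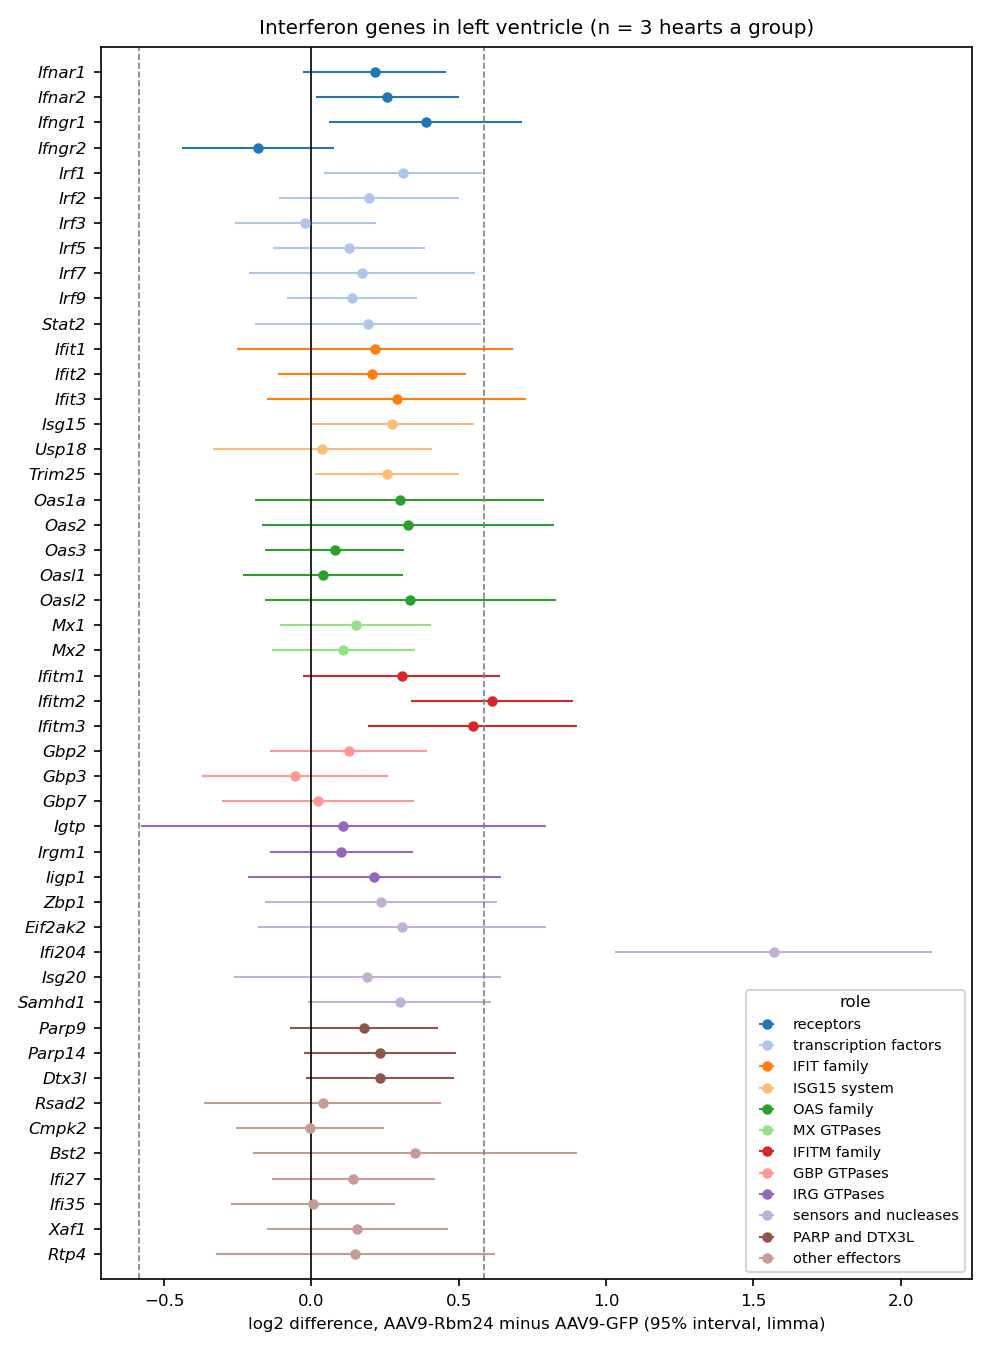
Log2 difference (AAV9-Rbm24 minus AAV9-GFP, horizontal axis) of each of the 48 interferon genes (rows, coloured by role), as points with 95% limma intervals from 3 hearts a group. Dashed lines mark 1.5-fold in each direction. Most points lie slightly to the right of 0, from -0.18 (Ifngr2) to 0.61 (Ifitm2), and Ifi204 stands alone at 1.57.

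The small shift of the whole list was uneven over hearts. The mean log2 signal over the 48 members was 8.51, 8.52 and 8.72 in AAV9-Rbm24 hearts 1, 2 and 3, against 8.45, 8.26 and 8.38 in AAV9-GFP hearts 1, 2 and 3. AAV9-Rbm24 3 held the highest of the 6 signals for 32 members, and AAV9-GFP 2 the lowest for 30. Within its own group, AAV9-Rbm24 3 was the highest heart for 35 members, while it was so for 35.1% of clusters with a mean of at least 6. AAV9-GFP 2 was the lowest of its group for 33 members, and for 52.2% of those clusters. Without AAV9-Rbm24 3 the median difference of the members was 0.11, and without AAV9-GFP 2 it was 0.15, so both hearts bear on its size. For 36 members, leaving out at least 1 heart moved the difference by over 1.5 times or turned its sign, most often AAV9-Rbm24 3 or AAV9-GFP 2 (24 members each). The 12 that kept within 1.5 times were Ifnar1, Ifnar2, Ifngr1, Irf1, Irf9, Isg15, Trim25, Ifitm2, Ifitm3, Ifi204, Parp14 and Dtx3l.

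**Figure D2:**
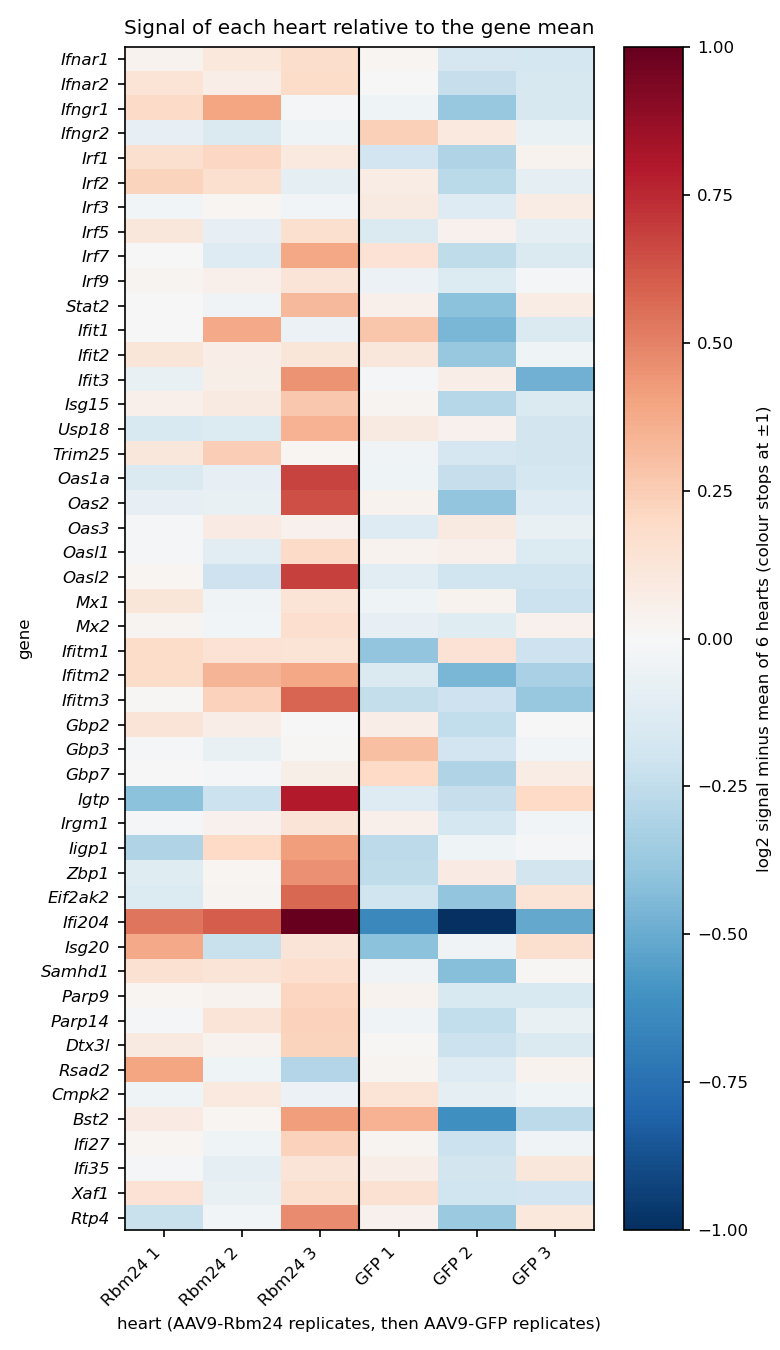
Log2 signal of each heart minus the mean of that gene over the 6 hearts (colour, red above and blue below, stopping at 1 in both directions), for 48 interferon genes (rows) and the AAV9-Rbm24 and AAV9-GFP hearts (columns, separated by a line). The column of AAV9-Rbm24 3 is the reddest and that of AAV9-GFP 2 the bluest, and only the row of Ifi204 is strongly coloured in all hearts.

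The 4 receptor chains were tested first along the path of the signal, and none was called. Ifnar1, the chain of the type I receptor that binds Tyk2, had log2 signals of 10.30, 10.37 and 10.44 in AAV9-Rbm24 hearts, against 10.28, 10.09 and 10.08 in AAV9-GFP hearts. Its groups did not overlap, but AAV9-GFP 1 came close to the lowest AAV9-Rbm24 heart, and the difference was 0.21 (SE 0.10, adjusted p = 0.645, limma). Ifnar2, the high-affinity chain that binds Jak1, had 10.50, 10.43 and 10.55 in AAV9-Rbm24 hearts, against 10.37, 10.13 and 10.21 in AAV9-GFP hearts. All AAV9-Rbm24 hearts were the higher ones, by 0.26 on average (SE 0.10, adjusted p = 0.559).

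The chains of the interferon gamma receptor had mean differences of opposite sign. Ifngr1, the ligand-binding chain, had log2 signals of 11.18, 11.39 and 10.98 in AAV9-Rbm24 hearts, against 10.95, 10.61 and 10.83 in AAV9-GFP hearts. No AAV9-GFP heart reached an AAV9-Rbm24 heart, and the difference of 0.39 was the largest of the 4 chains (SE 0.14, adjusted p = 0.494, limma). Ifngr2, the chain that brings in Jak2, had 13.83, 13.77 and 13.88 in AAV9-Rbm24 hearts, against 14.16, 14.02 and 13.85 in AAV9-GFP hearts. Its groups overlapped through AAV9-GFP 3, and the difference of -0.18 (SE 0.11, adjusted p = 0.727) was the lowest of all 48 members.

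Of the 7 transcription factors, none passed either rule. Stat2, a part of ISGF3, had log2 signals of 8.92, 8.89 and 9.24 in AAV9-Rbm24 hearts, against 8.97, 8.51 and 8.996 in AAV9-GFP hearts. Apart from the low AAV9-GFP 2 the hearts were interleaved, and the difference was 0.19 (SE 0.17, adjusted p = 0.808, limma), or 0.03 without that heart. Irf9, the DNA-binding part of ISGF3, had 7.80, 7.83 and 7.91 in AAV9-Rbm24 hearts, against 7.72, 7.64 and 7.76 in AAV9-GFP hearts. Its groups did not overlap, yet the step between them was small, with a mean difference of 0.14 (SE 0.09, adjusted p = 0.753).

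Irf7 is the factor that amplifies type I interferon production and is itself induced by interferon. It had log2 signals of 6.96, 6.84 and 7.35 in AAV9-Rbm24 hearts, against 7.10, 6.70 and 6.82 in AAV9-GFP hearts. The second highest heart was AAV9-GFP 1, and the difference was 0.17 (SE 0.17, adjusted p = 0.833, limma), or 0.02 without AAV9-Rbm24 3. The remaining factors Irf1, Irf2, Irf3 and Irf5 ranged from -0.02 (Irf3) to 0.31 (Irf1). Irf1, which responds early to interferon gamma and carries the GAS printed above, was the highest of the 7 and had groups that did not overlap, with 8.01, 8.06 and 7.94 in AAV9-Rbm24 hearts, against 7.65, 7.55 and 7.88 in AAV9-GFP hearts (adjusted p = 0.507). A second cluster of Irf1, with a mean signal of 4.77, differed by 0.15.

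The effectors are the genes by which interferon-stimulated genes are usually recognised, and of these 37 members Ifi204 and Ifitm2 passed the fold and p rule and no other did. Their median log2 difference was 0.21. The IFIT proteins, which bind viral RNA, gave 0.22 for Ifit1, 0.21 for Ifit2 and 0.29 for Ifit3, with overlapping groups in all 3. Without AAV9-GFP 2 Ifit1 and Ifit2 were at 0.04 and 0.07, and without AAV9-GFP 3 Ifit3 was at 0.12. Ifit1 had 7.19, 7.57 and 7.13 in AAV9-Rbm24 hearts, against 7.47, 6.74 and 7.05 in AAV9-GFP hearts. The hearts of both groups were thus mixed in rank, with AAV9-GFP 1 second of the 6.

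Isg15, a ubiquitin-like protein that is attached to other proteins, had log2 signals of 5.76, 5.80 and 5.98 in AAV9-Rbm24 hearts, against 5.74, 5.42 and 5.56 in AAV9-GFP hearts. The groups did not overlap, at signals below the negative control medians, and the difference was 0.27 (SE 0.12, adjusted p = 0.602, limma). Usp18, which removes Isg15 from its targets and damps the type I receptor, differed by 0.04. Trim25, a ubiquitin ligase that acts on the RNA sensor RIG-I, gave 0.26 with groups that did not overlap (adjusted p = 0.563).

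In the OAS family, whose founding members make short oligoadenylates that switch on RNase L, 1 heart carried the difference. Oasl2 had log2 signals of 7.82, 7.60 and 8.49 in AAV9-Rbm24 hearts, against 7.70, 7.60 and 7.61 in AAV9-GFP hearts. Oas1a and Oas2 had the same shape, with 7.996 and 9.04 in AAV9-Rbm24 3. The differences of these 3 genes were 0.34, 0.30 and 0.33, and without AAV9-Rbm24 3 they were 0.08, 0.04 and 0.09. Oas3 and Oasl1, both dim, gave 0.08 and 0.04. Adjusted p-values of the 5 genes ran from 0.732 to 0.961 (limma).

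The dynamin-like GTPases Mx1 and Mx2, which block virus replication, differed by 0.15 and 0.11 with overlapping groups. Gbp2, Gbp3 and Gbp7, guanylate-binding proteins of the interferon gamma response, gave 0.13, -0.06 and 0.02. The immunity-related GTPases Igtp, Irgm1 and Iigp1 gave 0.11, 0.10 and 0.21. Igtp was the member with the largest standard error (0.30), with 8.60, 8.79 and 9.80 in AAV9-Rbm24 hearts, against 8.88, 8.78 and 9.21 in AAV9-GFP hearts. AAV9-Rbm24 3 was again the highest heart, while AAV9-Rbm24 1 was the lowest of the 6, and without AAV9-Rbm24 3 the difference was -0.26.

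Parp9, Parp14 and Dtx3l, ADP-ribosyltransferases and their partner ubiquitin ligase, lay close together at 0.18, 0.23 and 0.23. The groups of Parp14 and Dtx3l did not overlap, and their adjusted p-values were 0.638 and 0.628 (limma). Among the remaining effectors Rsad2 (viperin), Cmpk2, Bst2 (tetherin), Ifi27, Ifi35, Xaf1 and Rtp4, differences ran from -0.0045 for Cmpk2 to 0.35 for Bst2 with overlapping groups in all 7. Bst2, which tethers budding virus to the cell, had 10.10, 10.04 and 10.44 in AAV9-Rbm24 hearts, against 10.36, 9.40 and 9.76 in AAV9-GFP hearts. Its difference was 0.13 without AAV9-GFP 2. Rsad2 had its highest signal in AAV9-Rbm24 1 and its lowest in AAV9-Rbm24 3 (10.07 and 9.39), with 9.71, 9.55 and 9.71 in AAV9-GFP hearts.

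The IFITM family, small membrane proteins that hinder the entry of enveloped viruses, held the highest differences after Ifi204. Ifitm2 had log2 signals of 10.11, 10.26 and 10.31 in AAV9-Rbm24 hearts, against 9.78, 9.46 and 9.60 in AAV9-GFP hearts. The groups were separated by more than the range within either group, and the difference was 0.61 (SE 0.12), a 1.53-fold difference that passed the fold and p rule but not the adjusted threshold (adjusted p = 0.124, limma). Without AAV9-Rbm24 3 or without AAV9-GFP 2 the difference was 0.57 or 0.54, below 1.5-fold, and by that rule Ifi204 alone passed.

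Ifitm3, the family member with the best known action against influenza virus, had log2 signals of 13.14, 13.36 and 13.71 in AAV9-Rbm24 hearts, against 12.89, 12.92 and 12.76 in AAV9-GFP hearts. All AAV9-Rbm24 hearts were higher, and they were also more spread. The difference of 0.55 (SE 0.15, adjusted p = 0.323, limma) lay just under 1.5-fold, and without AAV9-Rbm24 3 it was 0.39. Ifitm1 had 6.10, 6.06 and 6.06 in AAV9-Rbm24 hearts, against 5.53, 6.07 and 5.71 in AAV9-GFP hearts. AAV9-GFP 2 fell inside the AAV9-Rbm24 range, and the difference was 0.31 (SE 0.14, adjusted p = 0.63). The promoters of Ifitm2 and Ifitm3 each hold an ISRE core, printed above, and that of Ifitm1 held no match.

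Among the sensors and nucleases, Ifi204 was set apart from every other member by its difference. Ifi204 belongs to the PYHIN (HIN-200) family, nuclear and cytosolic proteins that bind DNA, and is expressed in cells of the macrophage line. Its log2 signals were 10.08, 10.15 and 10.75 in AAV9-Rbm24 hearts, against 8.90, 8.34 and 9.03 in AAV9-GFP hearts. The lowest AAV9-Rbm24 heart stood more than 1 log2 unit above the highest AAV9-GFP heart. The difference was 1.57 (SE 0.23), a 2.97-fold difference with a 95% interval of 2.04-fold to 4.31-fold, and the adjusted p was 0.0569 (limma). Over the alternative settings the difference ran from 1.35 to 1.71 and the adjusted p from 0.0287 to 0.433. Eif2ak2, the kinase PKR that senses double-stranded RNA, gave 0.31. Zbp1 (a sensor of Z-form nucleic acid), Isg20 (an exonuclease) and Samhd1 (an enzyme that breaks down dNTPs) gave 0.24, 0.19 and 0.30. Of these 4, Samhd1 alone had groups that did not overlap, and it was at 0.16 without AAV9-GFP 2. Without AAV9-Rbm24 3 Eif2ak2 and Zbp1 were at 0.10 and 0.07, and without AAV9-GFP 1 Isg20 was at 0.03.

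**Figure D3:**
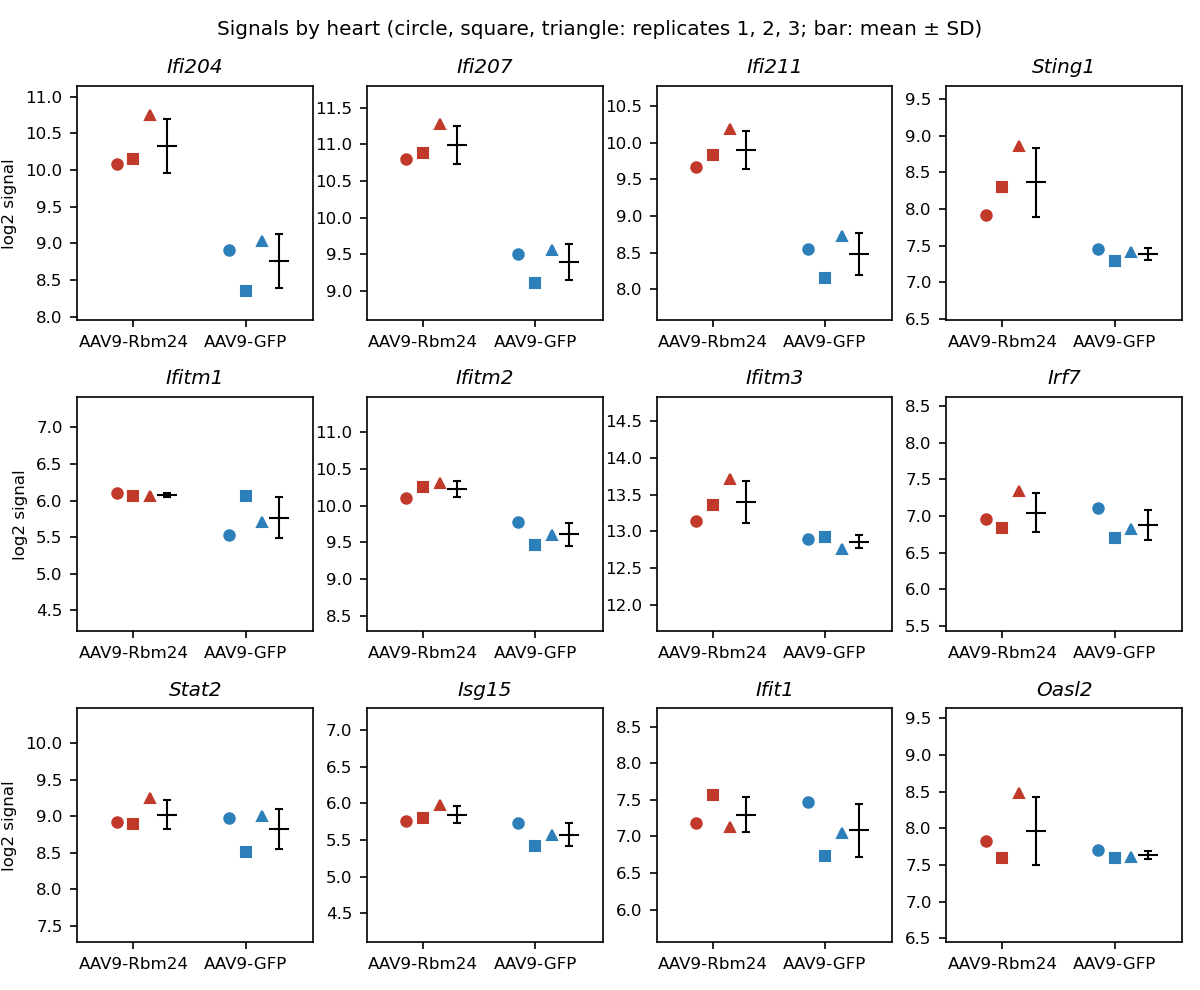
Log2 signal (vertical axes, each with the same span) of 12 genes in AAV9-Rbm24 (left, red) and AAV9-GFP (right, blue) hearts, with replicates 1, 2 and 3 as circle, square and triangle and a bar for mean ± SD (n = 3). Ifi204, Ifi207 and Ifi211 show groups that lie well apart, with differences of 1.57, 1.59 and 1.42, while those of Irf7, Stat2, Ifit1 and Oasl2 overlap.

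Other genes of the pathway, from a second list of 148 genes by role, were measured for 130. Of the rest, 16 were in clusters with several symbols, and the others are not analysed here. By adjusted p, 4 were called higher (Ifi207, Ifi211, Ifi30 and Casp4) and 0 lower, and these make up 3.08% of the list, against 0.755% of genes with 1 symbol and a mean of at least 6. By fold and p, 11 passed as higher (8.46%, against 3.06%) and 0 as lower, and with the p of the methods' analysis of variance 9 did. Without adjustment, p lay under 0.05 for 25 higher genes (19.2%, against 8.89%, and 4.08% of all clusters). The same held for 3 lower ones (2.31%, against 4.33% of all clusters), Ifna11, Mavs and Cxcl9. Cxcl9 had log2 signals of 6.90, 7.05 and 6.93 in AAV9-Rbm24 hearts, against 7.87, 7.08 and 7.29 in AAV9-GFP hearts. Its groups did not overlap, and its difference of -0.46 was the lowest of the 130 (adjusted p = 0.582, limma). In 39 of the 130 genes every AAV9-Rbm24 heart was higher, against 14.4% of genes with a mean of at least 6, and in 2 every one was lower (1.54%, against 7.71% of all clusters). The median difference was 0.10. This list too was chosen with earlier results of these data known, so its shares are descriptions and not a test.

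The interferons themselves were near the floor of the array. The 19 measured ligand genes had mean signals of 3.78 to 6.11, below the lowest negative control median, with a median difference of -0.11. None passed either rule, and the smallest p belonged to Ifna11 with a difference of -0.35 (adjusted p = 0.58, limma). Ifnb1 and Ifng, named here after their values were seen because they are the prototype ligands, gave -0.28 and -0.08. Signals this low limit what can be seen of ligand RNA.

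Of the kinases and further factors, Jak2 had log2 signals of 10.45, 10.55 and 10.42 in AAV9-Rbm24 hearts, against 10.19, 9.97 and 10.17 in AAV9-GFP hearts. It differed by 0.36 (adjusted p = 0.348, limma), with groups that did not overlap. Stat3, which serves the interleukin 6 family more than the interferons, had 10.72, 10.84 and 11.00 in AAV9-Rbm24 hearts, against 10.16, 9.93 and 10.47 in AAV9-GFP hearts. Its difference of 0.66 passed the fold and p rule (adjusted p = 0.212), and without AAV9-GFP 2 it was 0.54, below 1.5-fold. Irf8, a factor of the myeloid lineage, gave 0.27 (adjusted p = 0.512).

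Among 11 sensors and adaptors, Sting1, the adaptor of the cytosolic DNA pathway, had log2 signals of 7.92, 8.30 and 8.86 in AAV9-Rbm24 hearts, against 7.46, 7.29 and 7.41 in AAV9-GFP hearts. The AAV9-Rbm24 hearts were all higher but widely spread, with a difference of 0.97 that passed the fold and p rule (adjusted p = 0.192, limma). Aim2, a PYHIN protein that starts the DNA inflammasome, gave 0.43 (adjusted p = 0.256). Ifih1 (MDA5), a sensor of viral RNA, gave 0.26 and its adaptor Mavs -0.38 (adjusted p = 0.621 and 0.537). Other sensors, added after their values were seen, were close to Ifih1, with 0.26 for the DNA sensor Cgas and 0.25 and 0.26 for the RNA sensors Ddx58 (RIG-I) and Dhx58. Of 7 negative regulators, Ptpn6, a phosphatase of blood cells, gave 0.55 (adjusted p = 0.238).

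Among the 4 called genes were relatives of Ifi204. Ifi207 had log2 signals of 10.79, 10.88 and 11.28 in AAV9-Rbm24 hearts, against 9.50, 9.11 and 9.56 in AAV9-GFP hearts, a difference of 1.59 (SE 0.17, adjusted p = 0.0222, limma). Ifi211 had 9.67, 9.83 and 10.19 in AAV9-Rbm24 hearts, against 8.55, 8.16 and 8.72 in AAV9-GFP hearts, a difference of 1.42 (SE 0.18, adjusted p = 0.0344). Both are PYHIN genes, and the 3 genes Ifi204, Ifi207 and Ifi211 had the same order of hearts, with AAV9-Rbm24 3 highest and AAV9-GFP 2 lowest. The PYHIN genes of the mouse are near copies of each other, so probes may read more than 1 of them and the 3 values are not certain to be separate.

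Ifi30, a thiol reductase of lysosomes in antigen-presenting cells, had log2 signals of 9.71, 9.88 and 10.53 in AAV9-Rbm24 hearts, against 8.57, 8.17 and 8.55 in AAV9-GFP hearts, a difference of 1.61 (SE 0.22, adjusted p = 0.0419, limma). Casp4, the mouse caspase 11 that detects cytosolic lipopolysaccharide, had 7.48, 7.52 and 7.76 in AAV9-Rbm24 hearts, against 6.48, 6.40 and 6.61 in AAV9-GFP hearts, a difference of 1.09 (SE 0.12, adjusted p = 0.0222). The groups of both genes lay far apart. With 1 heart left out, none of these 4 genes was called except when the heart was AAV9-Rbm24 3, where Ifi207 and Ifi30 were (adjusted p = 0.0433 and 0.0462, limma). None of the differences went below 1.00. Calls fell over all clusters too, from 159 higher with all hearts to 90 without AAV9-Rbm24 3 and 0 without AAV9-GFP 2.

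Markers of some other cells in the ventricle moved with these genes. Of 16 measured macrophage and monocyte markers, 5 were called higher (31.2%, against 0.755% of genes with 1 symbol and a mean of at least 6) and 0 lower. Their groups did not overlap for 15 (93.8%, against 14.4%), and their median difference was 1.30. The mean log2 signal over these 16 was 9.72, 9.70 and 10.29 in AAV9-Rbm24 hearts, against 8.44, 8.35 and 8.57 in AAV9-GFP hearts, with AAV9-Rbm24 3 highest and AAV9-GFP 2 lowest. Ifi204 had the same extremes, but with AAV9-Rbm24 1 below AAV9-Rbm24 2. These extremes are not particular to the markers, since the first principal component over all clusters and the mean over all members had them too. Adgre1, a surface receptor of macrophages, had 9.62, 9.46 and 10.09 in AAV9-Rbm24 hearts, against 8.03, 7.52 and 7.58 in AAV9-GFP hearts. Their part in the values of Ifi204, Ifi207, Ifi211, Ifi30, Casp4 and the IFITM genes was not tested, and in RNA of whole tissue a different number of cells of a type and a different amount of RNA per cell cannot be told apart.

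Most fibroblast markers moved in the same direction, with 4 of 9 called higher (44.4%, against 0.755% of genes with 1 symbol and a mean of at least 6). Their median was 1.51, with list means of 11.86, 12.14 and 12.66 in AAV9-Rbm24 hearts, against 10.93, 10.66 and 10.60 in AAV9-GFP hearts. Tcf21 did not move with them, at -0.03 with overlapping groups (adjusted p = 0.979, limma). Other lists had medians near 0. Neutrophil (10 genes), lymphocyte (13), plasmacytoid dendritic (6) and endothelial (9) markers had median differences of 0.03, 0.04, -0.07 and 0.06, with none called. All neutrophil and lymphocyte markers and 5 of the 6 plasmacytoid dendritic markers had mean signals below the lowest negative control median, and the remaining one, Cox6a2, is an abundant gene of heart muscle, so these lists say little of their cells. The 12 cardiomyocyte markers had mean signals of 13.64 to 19.92, which fits the labelled tissue. Several of them, such as Actc1, Tnnt2 and Myh6, lay near the array maximum, where a difference cannot be read. The median difference of the 12 was -0.01, and none was called. In 3 of the 12 all AAV9-Rbm24 hearts were lower, a pattern found in 7.71% of all clusters. These were Ryr2, Tnni3 and Myl3, with -0.36, -0.20 and -0.18 (adjusted p = 0.51, 0.648 and 0.693, limma). The groups of 8 others overlapped, among them Myl2 at -0.05 and Myom1 at -0.09. Whether the number of cardiomyocytes differed was not tested. Nppa, the atrial natriuretic peptide, gave 2.76 (adjusted p = 0.149).

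**Figure D4:**
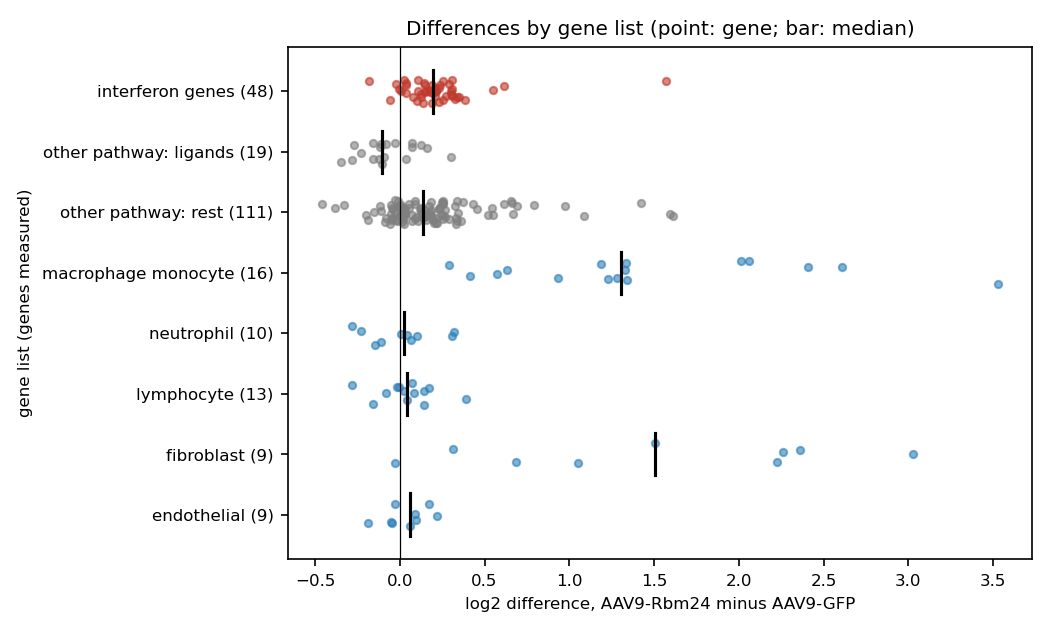
Log2 difference (AAV9-Rbm24 minus AAV9-GFP, horizontal axis) of each measured gene (points) in 8 lists (rows, number of genes in brackets), with a bar at each median. The interferon genes (median 0.19) and interferon ligands (-0.11) lie near 0, while most macrophage and monocyte markers (1.30) and most fibroblast markers (1.51) lie to the right.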

How the data were processed

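The values that the authors deposited are log2 signals per cluster (Affymetrix Mouse Transcriptome Array 1.0, 1 array per left ventricle, 1 colour). The submitters' processing notes name RMA, which corrects background, normalizes by quantiles and summarizes probes, and Affymetrix Expression Console. Their versions, the library file and the build of the genome are not given in these sources. The deposited signals of AAV9-GFP 2 still had a different distribution from the other arrays, as given above. No depth exists for arrays, so the 3 arrays per group limit the precision. Groups came from the sample titles.

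Of 72688 rows, 6732 controls were left out. The other 65956 clusters were fitted with limma 3.58.1 in R 4.3.3 (lmFit, eBayes, no covariate), dim ones included. Gene symbols are those of the platform annotation after an update through RefSeq, where 31292 clusters had 1 symbol, 1522 several and 33142 none. Each gene was represented by its cluster with the highest mean. Unnamed clusters stayed in the fit and in the adjustment.

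Values by heart are given for members past either rule, the receptors, Stat2, Irf7 and Irf9, and for some further members chosen after their values were seen (ends of ranges, or 1 heart apart). Of the second list, called genes, those with the smallest p by role and some chosen after their values were seen are named. The members and lists were chosen with earlier results of these data known. Alternatives were a minimum mean signal of 6 or 8, 1-symbol clusters, an intensity trend, robust variances, renewed quantile normalization, median centring, array weights, a replicate block, the methods' analysis of variance, the mean of a gene's clusters, and leaving out each heart. The procedure was tested on simulated data.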

Additional observations from a re-analysis of the deposited data

How the results depend on the processing

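No member was called lower under any alternative, and the median difference of the members stayed between 0.11 and 0.25. The number of members called higher by adjusted p was 1, Ifi204, in place of 0 with a minimum mean signal of 6 (adjusted p = 0.0477, limma) or 8 (0.0498), with 1-symbol clusters only (0.0287), with array weights (0.0368) and with the replicate block (0.0462). By fold and p, 1 member in place of 2 passed as higher with renewed quantile normalization and with array weights, and 1 to 3 with 1 heart left out. The sample titles do not say whether the replicate numbers pair the hearts, and the values that follow describe this without a test. The deviations of same-numbered hearts from their group means correlated at 0.027, 0.096 and 0.152, against -0.122 to 0.033 for hearts of unlike number. Deviations sum to 0 within a group, so these correlations depend on each other and cannot settle the pairing. With the replicate block 76 clusters were called higher and 7 lower, against 159 and 17 without it.

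Of the other pathway genes, 2 were called higher by adjusted p with median centring, 0 with the methods' analysis of variance (which called 0 clusters in all), and 0 to 2 with 1 heart left out. By fold and p, 6 in place of 11 passed as higher with a minimum of 8, which left 45 of the 130 genes, and 1 in place of 0 as lower with array weights, and 0 to 1 with 1 heart left out.

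Differences near 0 changed sign. With median centring Irf3 was at 0.01 and Cmpk2 at 0.02. With quantile normalization Gbp7 was at -0.05 and Ifi35 at -0.02. With array weights Usp18 was at -0.03, Gbp7 at -0.09, Igtp at -0.08, Ifi35 at -0.08 and Rtp4 at -0.03. With 1 heart left out in turn, differences ran from -0.09 to 0.02 for Irf3, -0.13 to 0.12 for Usp18, -0.05 to 0.1 for Oasl1, -0.16 to 0.08 for Gbp3, -0.12 to 0.13 for Gbp7, -0.26 to 0.34 for Igtp, -0.15 to 0.19 for Rsad2, -0.05 to 0.06 for Cmpk2, -0.09 to 0.06 for Ifi35 and -0.05 to 0.3 for Rtp4. The cause was not tested. Low signal limits the 8 members below the highest negative control median (Irf5, Isg15, Oas3, Oasl1, Mx1, Mx2, Ifitm1 and Zbp1) and the ligands.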
